A study of Mus musculus with 8 samples.

Results

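Plau, Plaur, Serpinb2, Thbs1 and F10, genes of the urokinase system and its regulators, are described here in mouse lung tumors. They were taken by symbol from the 8 deposited tables of unique molecular identifiers (UMIs), and they are 5 of the 27923 genes listed there. The genes were chosen by the cells that hold their UMIs and by their levels at the tumor border and in the whole tumor, with Plau followed in neutrophils, so those values are given as a description and carry no test.

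The tumors came from 2 genetically engineered mice, 1 male and 1 female, which are chimeras made from embryonic stem cells with floxed p53 alleles. At an age of 12 weeks the mice received an adenovirus in which the SPC promoter, active in alveolar type II cells, drives Cre recombinase, and tumors were taken 16 weeks later. Slices were stained with calcein NVOC, a dye that becomes fluorescent under near-ultraviolet light. Cells of the Healthy/Tumor Border were illuminated, dissociated and sorted for the dye, and filled 1 Seq-Well array per tumor (Seq-Well captures the polyadenylated RNA of single cells in small wells), while cells of the Whole Tumor were not illuminated and filled 3 arrays per tumor. Both regions of a tumor share the genotype, the virus and the dye. Each tumor stands for 1 mouse and the 3 arrays are technical replicates, so every SD and p-value below measures the spread between arrays and not between animals. Border position, illumination and sorting cannot be told apart, nor can tumor, mouse and sex.

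Urokinase, the product of Plau, is a secreted serine protease that cuts plasminogen into plasmin, the enzyme that dissolves fibrin and other matrix proteins. Its receptor, the product of Plaur, holds the protease at the cell surface and signals through integrins and other partners. Plasminogen activator inhibitors of the serpin family, Serpinb2 among them, block urokinase. Thbs1 encodes thrombospondin-1, a matrix protein that binds CD36, CD47 and integrins and activates latent TGF-beta. F10 encodes coagulation factor X, which in its active form turns prothrombin into thrombin and is best known as a liver product.

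The tables held 4343 barcodes, of which 3894 had at least 200 genes and were kept as cells. Deposited UMIs per library ran from 405627 to 2029200. Cells with at least 2 UMIs summed over Csf3r, G0s2, Clec4d and Cxcr2 formed the neutrophil gate, 1677 cells in all. The gate held 393 cells in the Tumor 1 Border, 171, 331 and 175 in the Tumor 1 arrays, 130 in the Tumor 2 Border and 101, 126 and 250 in the Tumor 2 arrays. Of neutrophil genes that the gate did not use, S100a9 stood at 5930.2 and Il1r2 at 1257 counts per 1000000 UMIs in the 1390 cells called neutrophil-like in the next paragraph, whereas Ly6g, a surface marker often used to define mouse neutrophils, had 2 UMIs there. How the counting treated Ly6g is not given in the sources used here, so its low count is not read as absence. Array 2 of Tumor 2 was shallow, with a median of 618 UMIs per gate cell against 2263 to 2817 in the other 7 libraries. The cell names in all 8 libraries carry the number of the other tumor, and the labels were followed, under which the barcode numbers per tumor and region are those given in the methods of the study. In all, 10 distinct barcodes occurred in more than 1 library and covered 56 cells, 11 of them in the gate.

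Cells of another type passed the gate. In 287 of the 1677 gate cells, UMIs of 8 macrophage genes (Csf1r, Adgre1, C1qa, C1qb, Mrc1, Lyz2, Ctss and Apoe) outnumbered those of the gate genes. Such cells were 1.27% of the gate in the Tumor 1 Border, 36.3%, 21.8% and 25.7% in the Tumor 1 arrays, 33.1% in the Tumor 2 Border and 14.9%, 3.17% and 16.4% in the Tumor 2 arrays. The gate values of every member are therefore given beside those of the 1390 remaining cells, called neutrophil-like, a split made after the data had been seen. In the neutrophil-like cells the macrophage list stood between 3.49 and 7.91 per 10000 UMIs in all 8 libraries, and its genes C1qa and C1qb had 2 UMIs each, but since the split used this list the low values follow from it and are no check of the class. All cells were sorted into 16 classes by listed marker genes, the neutrophil-like cells being 1 of them, with the order of the rules set after the data had been seen.

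Plau, the protease itself, was found in macrophages as well as in neutrophils. A level is given in CPM, the UMIs of a gene per 1000000 UMIs of the class, and is compared only within a gene. Pooled over the 8 libraries, C1q macrophage-like cells, which carry the complement genes C1qa, C1qb and C1qc, stood at 415 CPM (95% Poisson interval 368 to 466, 284 UMIs in 155 cells), Mmp12 macrophage-like cells at 259 CPM (219 to 305) and neutrophil-like cells at 172 CPM (158 to 186). The order was not the same in the 2 tumors. In the summed arrays of Tumor 1, neutrophil-like cells had 144.6 CPM (125 to 166), Mmp12 macrophage-like cells 90.8 CPM (55.5 to 140.3) and C1q macrophage-like cells 26.8 CPM (0.679 to 150, 1 UMI in 9 cells), with overlapping intervals between neighbours. In the summed arrays of Tumor 2, C1q macrophage-like cells had 229 CPM (174 to 296), Mmp12 macrophage-like cells 187 CPM (123 to 273) and monocyte-like cells 172 CPM (119 to 240.3), which overlapped, and neutrophil-like cells had 1.28 CPM (0.0325 to 7.15). Fibroblast-like cells pooled over the libraries reached 107 CPM (62.1 to 171), from 17 UMIs in 3 of 53 cells. Alveolar macrophage-like cells reached 69.0 CPM. The 100 B-like cells, a class that should lack the gene and has a median depth of 2268 UMIs, held 0 Plau UMIs, which allows up to 11.02 CPM (3 UMIs). All intervals cover counting error only.

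**Figure D1:**
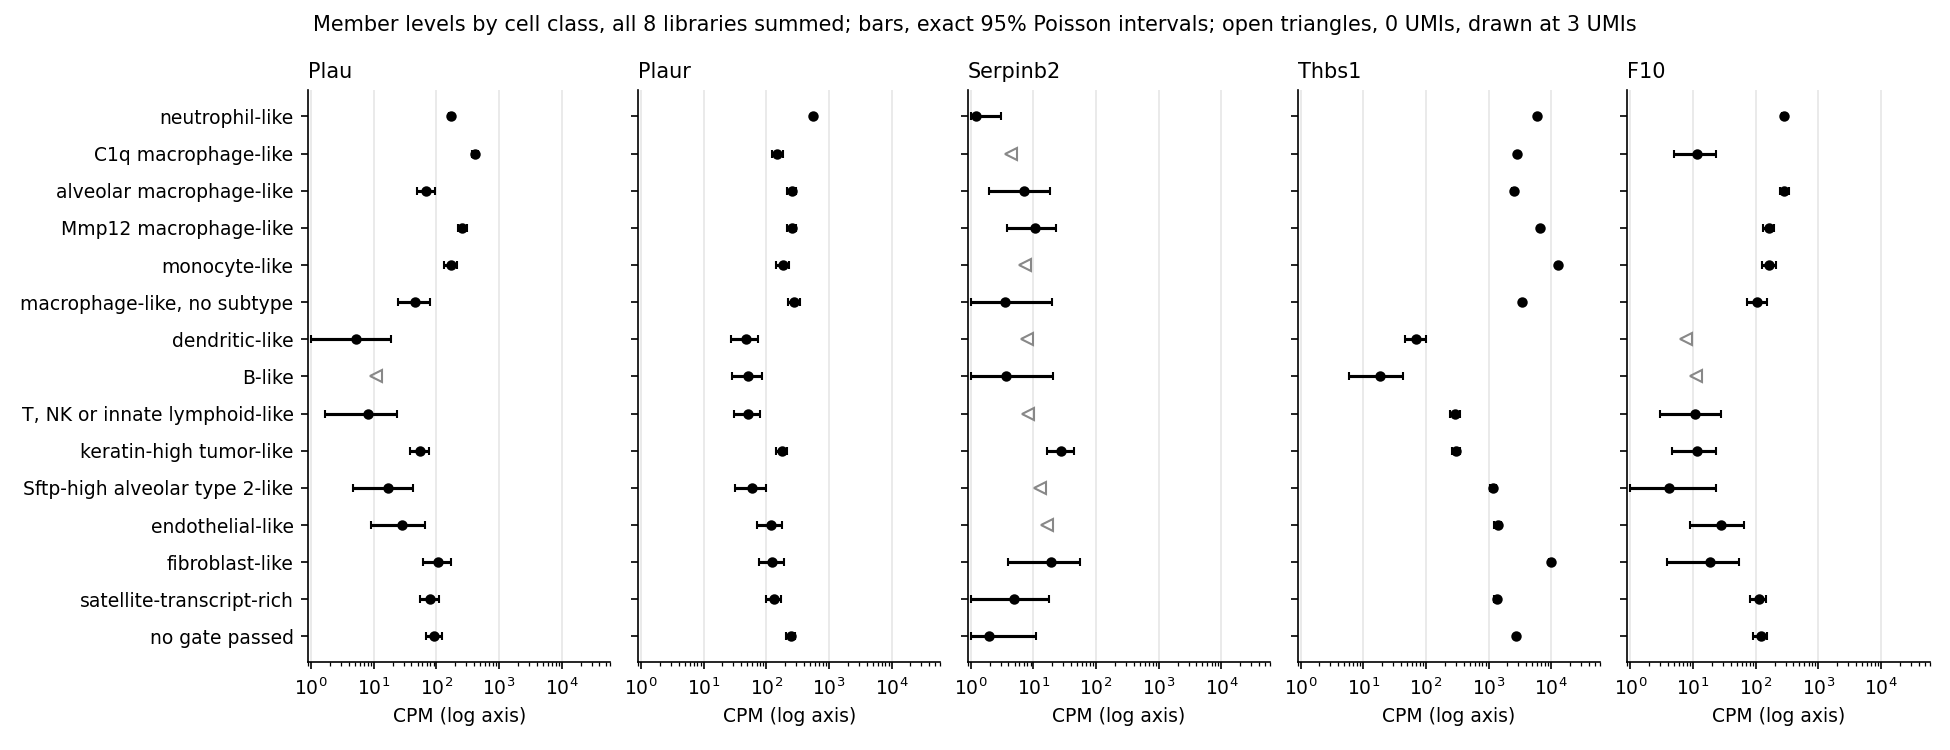
Level of each gene by cell class, summed over the 8 libraries, on a log axis of CPM with exact 95% Poisson intervals. Open triangles mark classes with 0 UMIs, drawn at 3 UMIs. Both tumors and regions are pooled, so the order of the classes is not that of each tumor: Plau in neutrophil-like cells, 172 CPM here, is at 144.6 CPM in the Tumor 1 arrays and 1.28 CPM in the Tumor 2 arrays.

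The cells that held the Plau transcripts differed between the tumors. Neutrophil-like cells held 90.5% of the 378 Plau UMIs of the Tumor 1 Border and 63.7% of the 314 of the Tumor 1 arrays. In Tumor 2 they held 6.97% of the 402 UMIs of the Border and 0.524% of the 191 of the arrays, where C1q macrophage-like cells held 56.0% and 30.4%. In such shares, fewer cells of a type and less RNA per cell cannot be told apart. C1q macrophage-like cells numbered 1 in the Tumor 1 Border and 9 in its arrays, against 76 and 69 in Tumor 2. Within Tumor 2 their Plau level was 576 CPM in the Border and 128, 332 and 257 CPM in the arrays. The Mmp12 macrophage-like cells of Tumor 2 stood at 492 CPM in the Border and at 0, 200.1 and 227 CPM in the arrays. In both macrophage classes the Border lay above all 3 arrays, as did 29.7% of all genes with at least 100 UMIs in the C1q and 26.7% of those in the Mmp12 macrophage-like cells of Tumor 2. Array 1 held only 4 Mmp12 macrophage-like cells and array 2 only 6, and over the series 10 cells held 56.0% of the Plau UMIs of the C1q macrophage-like cells.

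**Figure D2:**
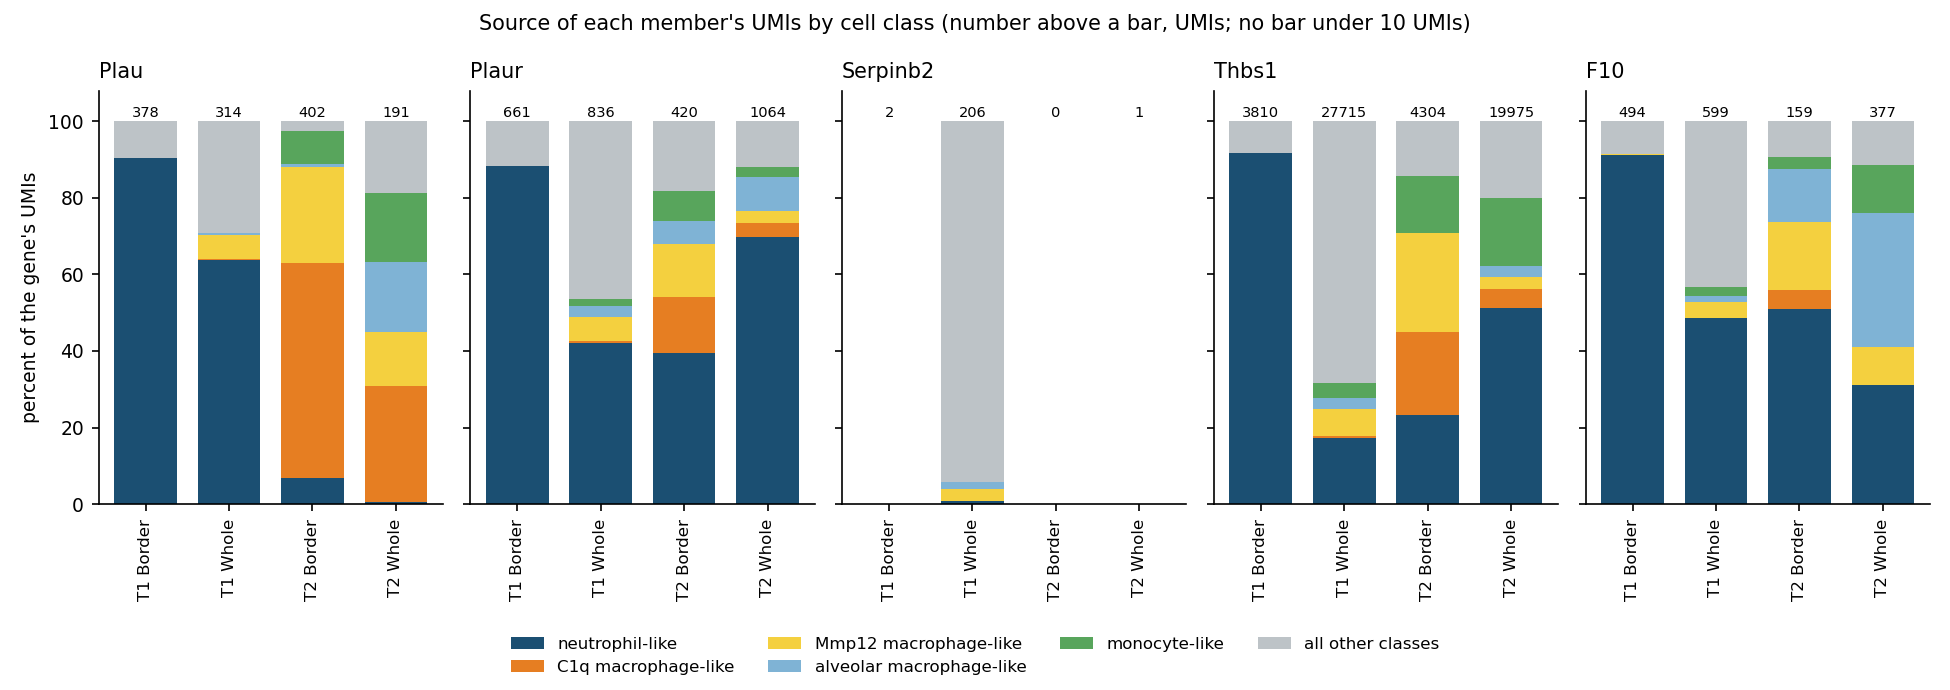
Share of the UMIs of each gene held by each cell class, as percent of the gene's UMIs in each tumor and region, with the number of UMIs above each bar and no bar under 10 UMIs. Neutrophil-like cells hold 90.5% of Plau in the Tumor 1 Border and 6.97% in the Tumor 2 Border, where C1q macrophage-like cells hold 56.0%. Grey stands for all classes not named in the legend.

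In the neutrophil gate as stated, Plau was higher at the Border in both tumors. The Tumor 1 Border had 337.8 CPM (303 to 375, 344 UMIs), and the Tumor 1 arrays had 89.9, 118.2 and 65.4 CPM. The Tumor 2 Border had 248.0 CPM (205 to 298, 115 UMIs), and the Tumor 2 arrays had 12.98, 0 and 46.5 CPM. Neither Border library overlapped the arrays of its tumor. The Border stood 3.71-fold above the array mean of 91.1 ± 26.4 CPM (SD, n = 3) in Tumor 1 and 12.5-fold above 19.8 ± 24.0 CPM (SD, n = 3) in Tumor 2. Over summed arrays, which give the shallow array less weight, the ratios were 3.42 (95% counting interval 2.89 to 4.05) and 7.03 (4.83 to 10.4). The Tumor 2 array mean was 29.8 CPM at most and 6.49 CPM at least with 1 array left out, the latter without array 3. With cells that also passed another gate left out, the Tumor 2 Border came to 75.8 CPM. Of all 7688 genes tested in the gate, 14.3% lay above all 3 arrays at the Border in Tumor 1 and 54.3% in Tumor 2.

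In neutrophil-like cells alone the difference in Tumor 2 rested on few cells. The Tumor 1 Border had 345.7 CPM (310 to 384, 342 UMIs in 87 of 388 cells), and the arrays had 144, 164 and 97.8 CPM, a ratio of 2.55 to their mean of 135 ± 34.1 CPM (SD, n = 3). The Tumor 2 Border had 157.8 CPM (105 to 228), which came from 28 UMIs in 9 of 87 cells, up to 10 of them in a single cell. The Tumor 2 arrays had 0, 0 and 1.97 CPM, which is 1 UMI in 417 cells. Both Border libraries again lay above the arrays of their tumor. Of all genes tested in these cells, 11.7% did so in Tumor 1 and 49.7% in Tumor 2, while 60.2% and 17.7% lay below all 3 arrays. Over summed arrays, the ratio of Border to Whole Tumor was 2.39 (95% counting interval 2.002 to 2.86) in Tumor 1 and 123 (20.3 to 5029) in Tumor 2, where the single UMI leaves the upper bound wide.

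Gate cells without any UMI of the macrophage list, 726 cells and 43.3% of the gate, were looked at last. Plau stood at 363 CPM in the Tumor 1 Border and at 182, 312 and 99.5 CPM in the Tumor 1 arrays. It stood at 301 CPM in the Tumor 2 Border (26 UMIs in 7 of 45 cells) and at 0, 0 and 4.56 CPM in the Tumor 2 arrays. The Border remained above the arrays in each tumor, but in Tumor 1 its ratio to the summed arrays was down to 1.54 (1.21 to 1.95), and its interval overlapped that of array 2. Among neutrophil-like cells with a Plau UMI, 42 of 87 in the Tumor 1 Border and 2 of 9 in the Tumor 2 Border also held a macrophage-list UMI, against 112 of 301 and 40 of 78 cells without Plau. The share was thus higher beside Plau in the first library and lower in the second. The median of gate UMIs in the Tumor 2 Border was 3 in the 9 cells with Plau, near the minimum of 2, against 7 in the 78 without, and in the Tumor 1 Border 7 against 6.

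**Figure D3:**
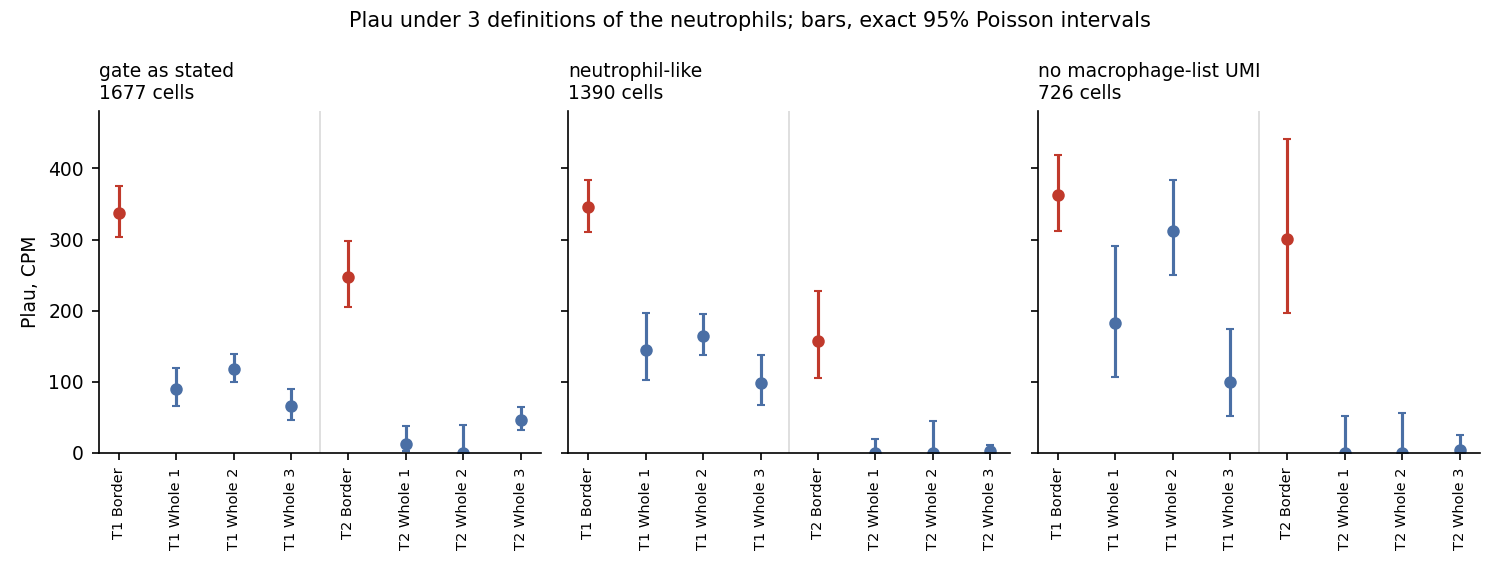
Plau in CPM per library with exact 95% Poisson intervals under 3 definitions of the neutrophils: the gate as stated, the neutrophil-like cells, and gate cells with no macrophage-list UMI. Red points are Border libraries and blue points are Whole Tumor arrays. The Tumor 2 Border moves from 248.0 to 157.8 and 301 CPM, while the 3 Tumor 2 arrays stay at or under 4.56 CPM once macrophage-rich cells are left out.

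Shares of gate cells with a Plau UMI followed the same order as the CPM at equal depth. After each gate cell was thinned to 1000 UMIs and shallower cells were left out, 14.8% of 359 cells in the Tumor 1 Border held a Plau UMI (95% Clopper-Pearson interval 11.3 to 18.9). The share was 7.28% (5.38 to 9.59) in the Tumor 1 arrays, with 6.33%, 8.28% and 6.25% in each. It was 12.4% (7.11 to 19.6) in the Tumor 2 Border and 1.16% (0.316 to 2.93) in the Tumor 2 arrays, where 131 shallow cells were left out. Without thinning the shares were 22.6%, 13.1%, 18.5% and 2.10% in the same order. In thinned neutrophil-like cells they were 14.97%, 9.23%, 7.69% and 0.347%, so there the share in the Tumor 2 Border was below that of the summed Tumor 1 arrays, whereas its CPM lay within theirs.

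Neutrophil-like cells of the 2 tumors were of unlike make-up, and Plau was followed within their kinds. Siglecf, a marker of tumor-associated neutrophils in mouse lung, was at 133 CPM in the Tumor 1 Border, 340, 313 and 293 CPM in the Tumor 1 arrays, 186 CPM in the Tumor 2 Border and 21.2, 12.0 and 19.7 CPM in the Tumor 2 arrays. Hdc, the histidine decarboxylase of mature neutrophils, was at 479 CPM, then 765, 347 and 351 CPM, then 1318 CPM, and 2533, 3066 and 3504 CPM in the same order. Siglecf was thus lowest and Hdc highest in the Tumor 2 arrays. In cells with a Retnlg or Hdc UMI and no Siglecf UMI, Plau was at 186 CPM in the Tumor 1 Border and 70.3 CPM in the Tumor 1 arrays. It was at 139 CPM (77.8 to 229, 15 UMIs in 5 of 56 cells) in the Tumor 2 Border. In the 383 such cells of the Tumor 2 arrays it was at 1.36 CPM, from 1 UMI. In cells with a Siglecf UMI and neither of the other markers it was at 274 CPM in the Tumor 1 Border and 107 CPM in the Tumor 1 arrays, and the 10 such cells of Tumor 2 held none. In cells with none of the 3 markers it was at 504 CPM in the Tumor 1 Border and 215 CPM in the Tumor 1 arrays. The Tumor 2 Border had 495 CPM (247 to 886), from 11 UMIs in 2 of 13 cells. The 23 such cells of the Tumor 2 arrays held 0 Plau UMIs, which allows up to 177 CPM (3 UMIs). In cells with UMIs of Siglecf and of Retnlg or Hdc it was at 327 CPM in the Tumor 1 Border and 133 CPM in the Tumor 1 arrays, with 2 UMIs in 12 cells of the Tumor 2 Border and 0 in 7 cells of its arrays. The Border was higher than the summed arrays in all 4 kinds in Tumor 1. In Tumor 2 it was higher in the cells with a Retnlg or Hdc UMI alone and in those with none of the markers, the latter 13 and 23 cells, and the kinds with a Siglecf UMI held too few cells there to be read. The part of the make-up in the differences was not tested.

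Between the Whole Tumor arrays Plau was lower in Tumor 2 in the neutrophils. Over all cells the arrays overlapped, at 67.6, 93.1 and 55.4 CPM in Tumor 1 and 25.9, 106.8 and 73.6 CPM in Tumor 2. The levels of the members in these libraries were among the values they were chosen by, so their differences between the tumors are given as a description with no test. The gate means were 91.1 ± 26.4 CPM in Tumor 1 and 19.8 ± 24.0 CPM in Tumor 2 (SD, n = 3 each). The arrays of the tumors did not overlap, which held for 63.1% of all genes tested in the gate, and 67.7% of those tested in neutrophil-like cells did not overlap there. The log2 change fitted by edgeR was -0.80 (SE 0.38) in the gate and -5.70 (SE 0.70) in neutrophil-like cells, the latter set against 1 UMI. It ran from -5.70 to -0.55 over 17 alternative settings. SE of an edgeR fit, here and below, is the absolute log2 change over the square root of the fit's F statistic. It is derived from the test and is no separate estimate, so nothing is read from it for the members. Over summed arrays, the CPM of Tumor 1 exceeded that of Tumor 2 by 2.80-fold (95% counting interval 1.98 to 4.06, 235 and 38 UMIs) in the gate and by 113-fold (20.0 to 4475, 200 UMIs and 1 UMI) in neutrophil-like cells. Plau lies on chromosome 14 of GRCm38 at 20836660 to 20843385, on the plus strand, with no gene overlapping it.

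Plaur, the receptor, was found in neutrophils and macrophages. Pooled over the 8 libraries, neutrophil-like cells had 554 CPM (529 to 579), and 47.6% of them held a Plaur UMI. In the summed arrays of Tumor 2 they stood at 953 CPM (886 to 1024), above the alveolar macrophage-like cells at 223 CPM (181 to 273) and the Mmp12 macrophage-like cells at 243 CPM (169 to 338). In the summed arrays of Tumor 1 the same 3 classes had 254 CPM (228 to 282), 345 CPM (221 to 513) and 241 CPM (180.3 to 315), with overlapping intervals. Neutrophil-like cells of all libraries held 61.8% of its 2981 UMIs. In the pooled values, macrophage-like cells of no subtype at 279 CPM (221 to 348), Mmp12 macrophage-like cells at 256 CPM and alveolar macrophage-like cells at 255 CPM had overlapping intervals. Monocyte-like, keratin-high tumor-like and C1q macrophage-like cells, at 186, 176 and 150.4 CPM, also overlapped each other. B-like cells were at 51.4 CPM (28.1 to 86.3), the level read as background. The macrophage-like and monocyte-like classes named here lay above it with intervals that did not overlap. These intervals cover counting error only and not the spread between libraries. The gene lies on chromosome 7 of GRCm38 at 24462484 to 24475968, on the plus strand.

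The promoter of Plaur is shown because it holds a match to the AP-1 site, the sequence bound by Fos and Jun proteins, within the 250 bases before the start. RefSeq windows of GRCm38.p6 were found for 3 of the 5 genes, Plaur, Serpinb2 and F10. The letters TGANTCA, searched on both strands, occur in 6.75% of the 32851 windows of this length. In Plaur the match begins 69 bases before the RefSeq start and is given in capitals, in the window chr7:24462233-24462482 on the plus strand, 5′ to 3′. Such a match is a description of letters and not a measured site.
Plaur: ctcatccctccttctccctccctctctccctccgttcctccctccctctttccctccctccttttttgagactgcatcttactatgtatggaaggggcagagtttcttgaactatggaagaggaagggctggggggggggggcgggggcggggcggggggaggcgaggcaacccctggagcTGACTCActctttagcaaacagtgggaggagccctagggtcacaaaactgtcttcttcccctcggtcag

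At the Border, Plaur moved in opposite ways in the gates of the 2 tumors. The Tumor 1 Border had 593 CPM (547 to 642), above arrays at 266, 250 and 270.0 CPM. The Tumor 2 Border had 511 CPM (448 to 580), below arrays at 883, 889 and 702 CPM. Of all genes tested in the gate, 14.3% lay above all 3 arrays at the Tumor 1 Border, and 15.2% lay below them at the Tumor 2 Border. The ratio to the array mean was 2.26 in Tumor 1 (262 ± 10.6 CPM, SD, n = 3) and 0.620 in Tumor 2 (825 ± 106 CPM, SD, n = 3). In neutrophil-like cells the Tumor 1 Border stayed above its arrays, at 589 CPM against 247, 256 and 254 CPM, as did 11.7% of all genes tested in these cells. There the Tumor 2 Border, at 935 CPM, lay within its arrays at 1019, 962 and 927 CPM, a ratio of 0.965. The macrophage list in the gate stood at 250.5 per 10000 UMIs in the Tumor 2 Border against 38.9 to 82.6 in the arrays, and its part in the gate value was not tested.

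Between the Whole Tumor arrays Plaur was higher in Tumor 2. The gate means were 262 ± 10.6 CPM in Tumor 1 and 825 ± 106 CPM in Tumor 2 (SD, n = 3 each), a ratio of 3.15. The arrays did not overlap, which held for 63.1% of all genes tested in the gate. The fitted log2 change, again with no test, was 2.34 (SE 0.20) in the gate and 2.73 (SE 0.22) in neutrophil-like cells, and ran from 1.63 to 2.88 over 17 alternative settings. At equal depth, 22.0% of gate cells in the Tumor 1 arrays and 47.4% in the Tumor 2 arrays held a Plaur UMI, with 34.5% and 35.5% in the Border libraries of Tumor 1 and Tumor 2. Without thinning the shares were 39.1% and 58.1% in the arrays and 51.7% and 66.9% in the Borders, so the order of Border and arrays in Tumor 2 turned with depth and is not read. In neutrophil-like cells the protease was thus lower and its receptor higher in the arrays of Tumor 2.

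**Figure D4:**
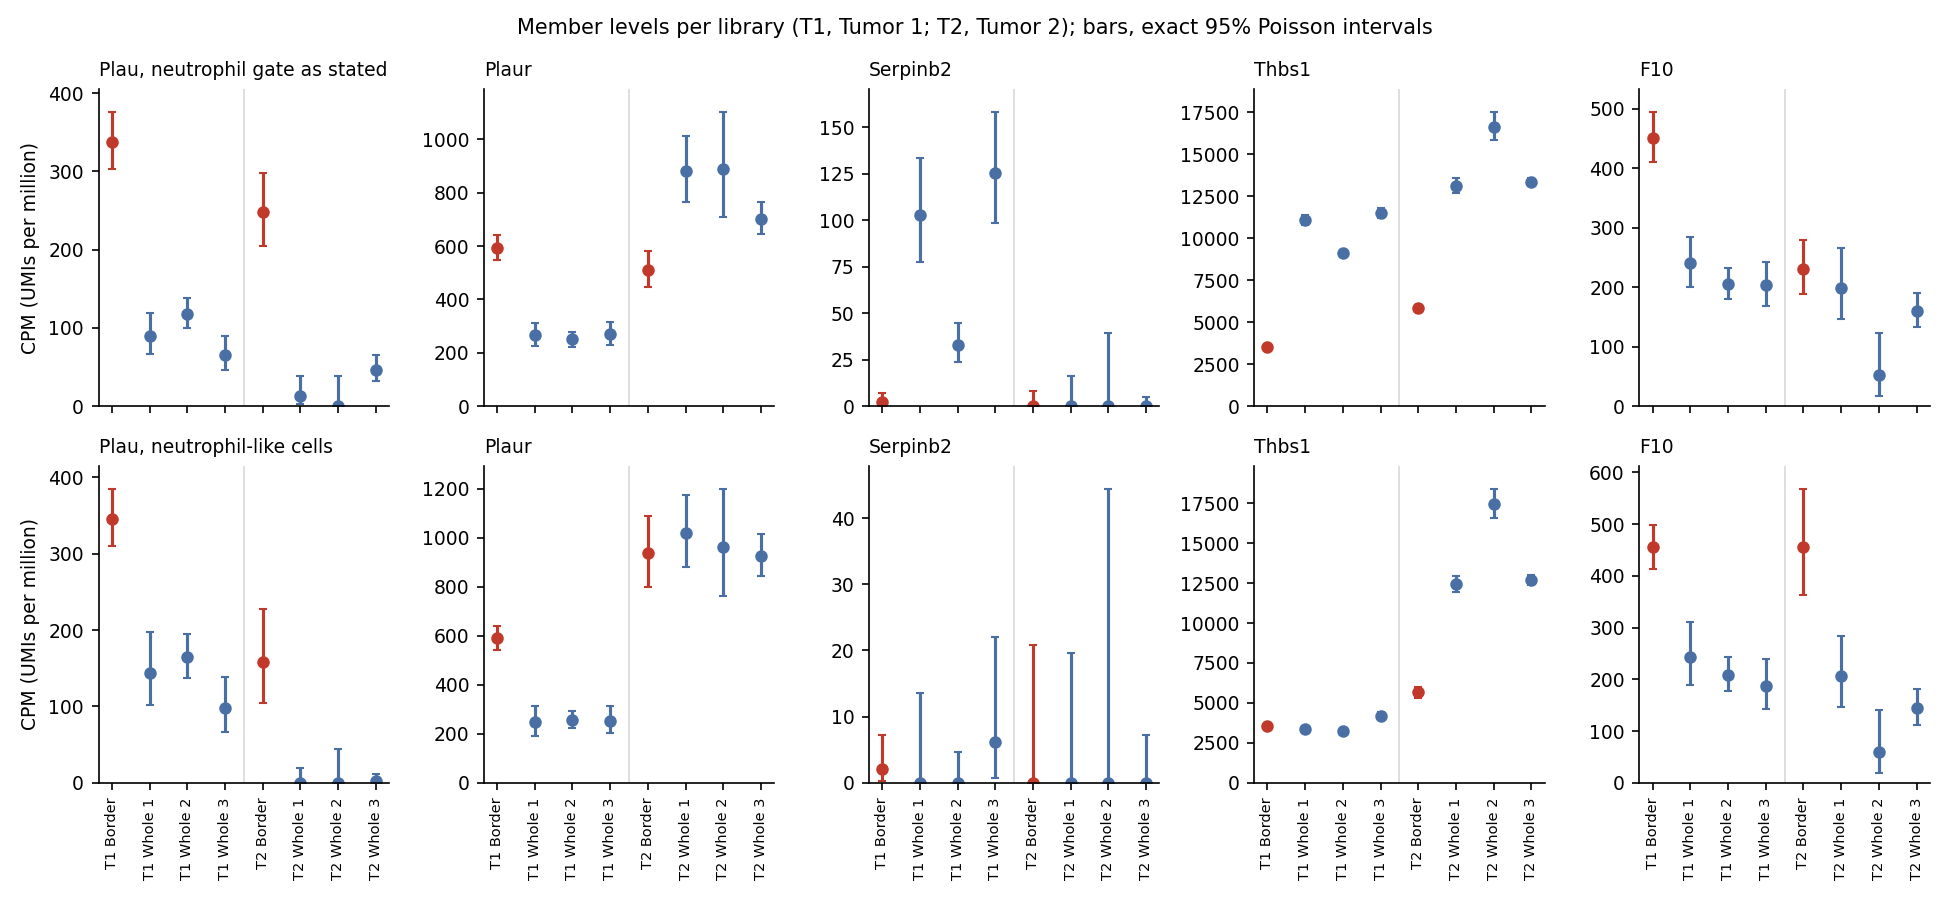
Level of each gene in each library in CPM, with exact 95% Poisson intervals, in the neutrophil gate as stated (upper row) and in neutrophil-like cells (lower row). Red points are Border libraries and blue points are Whole Tumor arrays. Plau and F10 lie above the arrays at the Border in both tumors and both rows, while Serpinb2 drops from up to 126 CPM in the gate to at most 6.11 CPM in neutrophil-like cells.

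Serpinb2, also called plasminogen activator inhibitor 2, was found almost wholly in the arrays of Tumor 1. Of its 209 UMIs in the series, 2 were in the Tumor 1 Border, 206 in the Tumor 1 arrays, 0 in the Tumor 2 Border and 1, in a B-like cell, in the Tumor 2 arrays. Neutrophil-like cells held 4 of them, or 1.91%. Pooled over the 8 libraries, keratin-high tumor-like cells stood at 27.9 CPM (16.3 to 44.7, 17 UMIs) and fibroblast-like cells at 18.8 CPM (3 UMIs). Mmp12 macrophage-like cells stood at 10.5 CPM (6 UMIs) and alveolar macrophage-like cells at 7.08 CPM (4 UMIs), and these intervals overlapped between neighbours. The order was another one in the summed arrays of Tumor 1. There alveolar macrophage-like cells had 57.5 CPM (15.7 to 147) and fibroblast-like cells 44.6 CPM (9.20 to 130). Keratin-high tumor-like cells had 31.0 CPM (18.0 to 49.6) and Mmp12 macrophage-like cells 27.2 CPM (10.0 to 59.3), and all these intervals overlapped. C1q macrophage-like, monocyte-like, dendritic-like, endothelial-like and T, NK or innate lymphoid-like cells held 0 UMIs. The gene lies on chromosome 1 of GRCm38 at 107511423 to 107535478, on the plus strand, and overlaps Serpinb10 on the same strand, so counts in the shared stretch could belong to either.

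Its promoter window, chr1:107511173-107511422 on the plus strand of GRCm38.p6, is shown beside that of Plaur because it too holds the AP-1 letters, in capitals, starting 94 bases before that RefSeq start. RefSeq has a second start for the gene, with the window chr1:107511260-107511509, where the same letters begin 181 bases before it. The window of F10 holds none.
Serpinb2: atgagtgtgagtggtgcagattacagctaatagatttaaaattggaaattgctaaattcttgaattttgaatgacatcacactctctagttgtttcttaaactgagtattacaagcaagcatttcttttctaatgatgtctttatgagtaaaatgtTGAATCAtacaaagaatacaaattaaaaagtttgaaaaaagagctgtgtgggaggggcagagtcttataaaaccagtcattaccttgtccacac

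In the neutrophil gate, 172 Serpinb2 UMIs were found, nearly all in cells that were not neutrophil-like. The Tumor 1 arrays had 103, 32.7 and 126 CPM, the Tumor 1 Border 1.96 CPM (2 UMIs), and the 4 libraries of Tumor 2 had 0. Summed over the arrays, the gate level of Tumor 1 was 36.4-fold (9.92 to 303) above its Border and at least 25.7-fold above the Tumor 2 arrays. In neutrophil-like cells 4 UMIs remained in the whole series, 2 in the Tumor 1 Border and 2 in array 3 of Tumor 1, so no level could be read there.

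Thbs1, the thrombospondin gene, was abundant in several myeloid classes and in fibroblasts. Of the other myeloid classes, dendritic-like cells of all libraries had 70.1 CPM (46.2 to 102). Alveolar macrophage-like cells had 2507 CPM, with a UMI in 20.2% of them. Pooled over the 8 libraries, monocyte-like cells stood at 12800.2 CPM (12454 to 13154), fibroblast-like cells at 9866 CPM, Mmp12 macrophage-like cells at 6555 CPM, neutrophil-like cells at 5872 CPM, macrophage-like cells of no subtype at 3473 CPM and C1q macrophage-like cells at 2901 CPM, with counting intervals that did not overlap. Libraries of a class spread more widely, so these neighbours do not differ beyond their spread: monocyte-like cells ran from 3872 to 32475 CPM and neutrophil-like cells from 3226 to 17446 CPM over the libraries. The order also differed between the tumors. In the summed arrays of Tumor 1, Mmp12 macrophage-like cells had 8960 CPM, fibroblast-like cells 4950 CPM and neutrophil-like cells 3480 CPM. In those of Tumor 2, fibroblast-like cells had 16236.5 CPM, neutrophil-like cells 13138 CPM and Mmp12 macrophage-like cells 4572 CPM. B-like cells pooled over the libraries had 18.4 CPM (5.96 to 42.9). Of the 55804 Thbs1 UMIs, neutrophil-like cells held 35.03%. The gene lies on chromosome 2 of GRCm38 at 118111876 to 118127133, on the plus strand, and overlaps the noncoding Gm29233 on the other strand.

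Border values of Thbs1 were lower than the arrays in both gates, but in Tumor 1 only while macrophages were included. The Tumor 1 Border had 3508 CPM against arrays at 11078, 9150.4 and 11510 CPM, and the Tumor 2 Border had 5821 CPM against 13141, 16652 and 13350.2 CPM. The Border lay below all 3 arrays in both tumors, as did 64.1% of all genes tested in Tumor 1 and 15.2% in Tumor 2. In neutrophil-like cells the Tumor 1 Border, at 3529 CPM, lay within its arrays at 3361, 3226 and 4186 CPM. There the Tumor 2 Border, at 5657 CPM, stayed below its arrays at 12440.5, 17446 and 12692 CPM, a ratio of 0.399. So did 17.7% of all genes tested in these cells.

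Between the tumors Thbs1 was higher in the arrays of Tumor 2 in the neutrophils, while over all cells the arrays overlapped, at 6813, 6412 and 7561 CPM in Tumor 1 and 5651, 6793 and 7404 CPM in Tumor 2. The gate means were 10580 ± 1256 and 14381 ± 1969 CPM (SD, n = 3 each), and the neutrophil-like means were 3591 ± 520 and 14193 ± 2820 CPM, a ratio of 3.95. The fitted log2 change was 1.12 (SE 0.17) in the gate and 2.75 (SE 0.21) in neutrophil-like cells. With cells of at least 500 genes only the gate value was 0.84, and by library size alone it was 0.43. At equal depth, 47.6% of gate cells in the Tumor 1 arrays and 65.03% in the Tumor 2 arrays held a Thbs1 UMI, against 52.3% and 66.7% without thinning. In the Border libraries the equal-depth shares were 35.9% in Tumor 1 and 63.6% in Tumor 2, the latter within the Tumor 2 arrays at 70.2%, 78.9% and 62.1%. In neutrophil-like cells of Tumor 2 they were 60.3% at the Border and 65.6% in the arrays, so the Border difference in CPM there was not matched by a like difference in the share of cells.

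F10, a coagulation factor, was found in neutrophils and in some macrophages. Pooled over the 8 libraries, alveolar macrophage-like cells had 288 CPM (246 to 336) and neutrophil-like cells 282 CPM (264 to 301), but within the arrays of Tumor 2 the former stood at 311 CPM (260 to 368) and the latter at 150.1 CPM (124 to 180), with no overlap. In the Tumor 1 arrays they had 129 CPM (59.2 to 246) and 210.4 CPM (187 to 236), which overlapped. All these intervals cover counting error only, and single arrays of the neutrophil-like cells spread more widely, as given below. The classes are therefore not read as different. Monocyte-like and Mmp12 macrophage-like cells had 238 CPM (175 to 316) and 264 CPM (187 to 362) in the Tumor 2 arrays, above the interval of the neutrophil-like cells for the Mmp12 class, and 353 CPM (197 to 581, 7 cells) and 114 CPM (73.5 to 168) in the Tumor 1 arrays. C1q macrophage-like cells had 11.7 CPM (5.04 to 23.0). The B-like and dendritic-like cells held 0 UMIs. Neutrophil-like cells held 57.6% of the 1629 F10 UMIs. The gene lies on chromosome 8 of GRCm38 at 13037308 to 13056676, on the plus strand.

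F10 was higher at the Border of both tumors in the neutrophils, as Plau was. Over all cells this held in Tumor 1, at 402 CPM against 166, 145 and 133 CPM, but the Tumor 2 Border, at 109 CPM, lay within its arrays at 129, 93.5 and 138 CPM. In the monocyte-like cells of Tumor 2 the Border, at 30.5 CPM (9.90 to 71.2, 5 UMIs), lay below the arrays at 294 ± 76.0 CPM (SD, n = 3). In the gate the Tumor 1 Border had 451 CPM (410.4 to 494) against arrays at 240.3, 205 and 203 CPM, a ratio of 2.09 to the mean. The Tumor 2 Border had 231 CPM (189 to 279) against arrays at 199, 52.9 and 159.6 CPM, a ratio of 1.68, and its interval overlapped those of arrays 1 and 3. In neutrophil-like cells the Border had 455 CPM in Tumor 1 and 456 CPM in Tumor 2. The arrays there had 244, 209 and 186 CPM in Tumor 1 and 207, 60.1 and 144 CPM in Tumor 2, and the ratios were 2.14 and 3.33. In all, 2 of the 5 members, Plau and F10, lay above all 3 arrays at the Border in both tumors under both definitions of the cells. Of all genes tested, 4.42% did so in both tumors in the gate and 4.72% in neutrophil-like cells, and since the members were chosen by these values nothing is read from their count. Equal-depth shares with an F10 UMI were 26.5% and 14.7% in the Border and arrays of Tumor 1, and 18.2% and 8.38% in Tumor 2. At 500 UMIs the latter pair came to 7.69% and 7.42%, and without thinning to 24.6% and 12.4%, after 33.6% and 26.3% in Tumor 1.

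Between the tumors the direction of F10 turned with the scaling. The gate arrays had means of 216 ± 20.9 CPM in Tumor 1 and 137 ± 75.6 CPM in Tumor 2 (SD, n = 3 each), with no overlap. This held for 63.1% of all genes tested in the gate. The neutrophil-like arrays overlapped. The fitted log2 change was 0.23 (SE 0.26) in the gate, of the opposite sign to the ratio of the CPM means, 0.635. The trimmed mean of M-values (TMM) scaling used there shifts the median log2 change over all genes from -0.93 to -0.19 in this comparison. Without that scaling the change was -0.50.

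Members were seen together in some cells, and the direction differed between pairs and groups. Among thinned neutrophil-like cells of the Tumor 1 Border, a Plau UMI was found in 24 of 124 cells with a Plaur UMI (19.4%) and in 29 of 230 without (12.6%). In the Tumor 1 arrays the shares were 14.1% and 7.87%, and in the Tumor 2 Border they were 4 of 34 and 2 of 44 cells. The share was thus higher beside Plaur in these 3 groups, and in the Tumor 2 arrays 1 of 149 cells with a Plaur UMI and 0 of 139 without held Plau. Beside Thbs1 the order varied. Plau was found in 17.3% of cells with a Thbs1 UMI and 13.7% of those without in the Tumor 1 Border, but in 7.65% and 10.2% in the Tumor 1 arrays. Plaur was found in 30.7% of cells with a Thbs1 UMI and 37.4% without in the Tumor 1 Border. In the other groups it was higher beside Thbs1. The shares were 22.9% and 21.1% in the Tumor 1 arrays, 55.3% and 25.8% in the Tumor 2 Border, and 56.6% and 42.4% in the Tumor 2 arrays. Across 32 sums by class and tumor, the genes with the most similar log2 CPM to Plau were Sap30 and Metrnl (Pearson r = 0.727 each), then Nlrp3, Dpp7 and Hdac5. For Plaur they were Gadd45a (0.828), 1110007C09Rik, Tlr4, Slc2a1 and Slc16a3. For Serpinb2 they were Marco (0.694), Prtn3, Ecm1, Mmd and Tnfrsf22, for Thbs1 they were Ctsl (0.795), Ier3, App, Plaur and Vegfa, and for F10 they were Ccl6 (0.857), Bst1, Lhfpl2, Plin2 and Hgsnat. Sums of one tumor share its libraries, and these coefficients are descriptions.

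For the wider pathway, 50 other genes of plasminogen activation, its inhibitors, urokinase receptor partners, thrombospondin receptors and coagulation were listed by their known roles, and 24 of them were abundant enough in the gate to test. At the Tumor 1 Border 3 were higher, 8 lower and 13 not called (quasi-likelihood fit of edgeR, p-values adjusted by Benjamini and Hochberg over all genes, threshold 0.05), beside 16.4% of all genes called, 9.86% higher and 6.5% lower. The median log2 change of the list was -0.44 against -0.11 over all genes. At the Tumor 2 Border 3 were higher, 4 lower and 17 not called, beside 11.6% of all genes called, 4.15% higher and 7.45% lower, with medians of 0.22 and 0.11. With 1 Border library per tumor, the spread in these tests comes from the arrays alone. The counts of higher and lower genes also depend on the scaling, as given in the last section. By library size alone, without the trimmed-mean scaling, the medians over all genes were -0.69 in Tumor 1 and 0.60 in Tumor 2. In neutrophil-like cells 19 were tested, with list medians of 0.48 in Tumor 1, of the opposite sign to the gate, and 0.05 in Tumor 2, against -0.06 and 0.07 over all genes. In Tumor 1, 3 were higher and 1 lower, beside 7.9% of all genes called, 6.6% higher and 1.3% lower. In Tumor 2, 4 were higher and 2 lower, beside 10.4% called, 4.6% higher and 5.84% lower. Of the 8 genes lower in the gate of Tumor 1, F5 was called there too, Cd36, Lrp1 and Procr were not called (log2 -2.75, -0.48 and 1.19, edgeR adjusted p = 0.247, 0.527 and 0.708), and F13a1, Pros1, S100a10 and Thbd were too low to test. The macrophage list in the gate stood at 4.27 per 10000 UMIs in the Tumor 1 Border against 62.8 to 81.7 in its arrays, and at 250.5 in the Tumor 2 Border against 38.9 to 82.6, and its part in the gate results was not tested.

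Between the Whole Tumor arrays, 6 of the 24 genes in the gate were called higher in Tumor 2 by edgeR (Anxa2, Fpr1, Fpr2, Itgb2, Plgrkt and Procr), 5 were lower and 13 were not called, beside 33.8% of all genes called, 19% higher and 14.8% lower. The list median was -0.07 against -0.19 over all genes. By library size alone, without the trimmed-mean scaling, 2 genes, Anxa2 and Fpr1, were higher and 12 lower. The array means of these 2 were 267 ± 18.1 and 43.9 ± 13.8 CPM in Tumor 1 against 414 ± 55.9 and 125 ± 26.2 CPM in Tumor 2 (SD, n = 3 each), whereas Procr had 46.3 ± 20.98 and 37.1 ± 41.0 CPM, the opposite order to its call. In neutrophil-like cells 7 of 19 were higher, 4 lower and 8 not called, beside 49.7% of all genes called, 23.7% higher and 26% lower. Anxa2, Fpr1, Fpr2, Itgb2 and Plgrkt were called higher in both sets of cells, although the neutrophil-like means of Plgrkt ran the other way, at 132 and 118 CPM. F5 was lower in the gate and higher in neutrophil-like cells.

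Among plasminogen and its receptors, 4 of 6 genes were tested. Plgrkt, a membrane receptor for plasminogen, was higher at the Tumor 1 Border, at 189 CPM against 89.4 ± 25.6 CPM in the arrays (log2 1.64, SE 0.30, adjusted p = 1.41e-04), and S100a10, its partner protein in plasminogen binding with annexin A2, was lower. Anxa2 itself was lower at the Tumor 2 Border, at 285 against 414 ± 55.9 CPM (log2 -1.04, SE 0.31, adjusted p = 0.0238).

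Of 10 receptor partners 7 were tested. Lrp1, which takes up urokinase with its inhibitor, was lower at the Tumor 1 Border, at 50.1 against 288 ± 27.8 CPM (log2 -1.93, adjusted p = 4.35e-04), and higher at the Tumor 2 Border, at 636 against 106 ± 61.3 CPM (log2 1.84, SE 0.32, adjusted p = 2.49e-04, edgeR). In neutrophil-like cells the log2 change of Lrp1 was -0.48 at the Tumor 1 Border, where it was not called, and 1.80 at the Tumor 2 Border. Fpr2 and Fpr1, formyl peptide receptors of neutrophils, and Itgb2, a leukocyte integrin chain, were lower at the Tumor 2 Border in the gate. Their log2 changes were -1.83, -1.33 and -1.07. In neutrophil-like cells Itgb2 was again lower there (log2 -1.32, adjusted p = 0.00341), while Fpr2 and Fpr1 were not called (log2 -0.89 and -1.06, adjusted p = 0.201 and 0.126). Fpr1 was called higher at the Tumor 1 Border in those cells (log2 1.73, adjusted p = 0.00777). Itgam, the partner of Itgb2, was not called in either tumor. Itgb1, another integrin chain, was called higher at the Tumor 2 Border in neutrophil-like cells, at 299 against 106 ± 4.92 CPM (log2 1.05). It was not called there in the gate, nor at the Tumor 1 Border in either set of cells.

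Of the 7 genes of the thrombospondin list 5 were tested. Itgb3 was higher at the Tumor 1 Border, at 93.3 against 59.5 ± 9.74 CPM (log2 1.19, SE 0.33, adjusted p = 0.0111, edgeR), and Cd36, a thrombospondin and lipid receptor, was lower, with 1 UMI at the Border and a ratio of 201 (35.9 to 7963) between the summed arrays and the Border. Neither was called at the Tumor 1 Border in neutrophil-like cells, where Itgb3 stood at 96.03 against 82.2 CPM (adjusted p = 0.237) and Cd36 at 1.01 against 10.8 CPM (log2 -2.75, adjusted p = 0.247). At the Tumor 2 Border neither was called in the gate, where the log2 change was 1.62 for Itgb3 (adjusted p = 0.0909, edgeR) and -0.34 for Cd36 (adjusted p = 0.718). In neutrophil-like cells Itgb3 was called higher there, with a log2 change of 2.35. Cd36 had a log2 change of 2.84 there, of the opposite sign to the gate. It stood at 107 CPM at that Border, against at most 15.7 CPM in the Tumor 2 arrays and 18.3 CPM in the Tumor 1 arrays. Cd36 thus passed the count filter in these cells only through the library where it is high. Its call is not read, though it stays in the counts of called genes. Cd47 and Tgfb1 were not called in either set of cells.

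Of the 20 coagulation genes 7 were tested. F3, tissue factor, the starter of the pathway that activates factor X, was higher at the Tumor 1 Border, at 123 against 36.4 ± 4.59 CPM (log2 2.36, SE 0.35, adjusted p = 8.71e-06, edgeR), and kept this in neutrophil-like cells (log2 2.48, adjusted p = 1.98e-07). F5, the cofactor of factor Xa, was lower there, at 20.6 against 434 ± 27.1 CPM (log2 -3.81), and in neutrophil-like cells (log2 -1.37, adjusted p = 0.0393). With cells that also passed another gate left out, no pathway gene, F5 included, was called lower at the Tumor 1 Border. F13a1, the fibrin cross-linking factor made by monocytes, had 0 UMIs at the Tumor 1 Border, at least 18.8-fold below the arrays. At the Tumor 2 Border it had 420.4 CPM against 33.5 ± 30.8 CPM. F7 was higher at the Tumor 2 Border (log2 1.74, adjusted p = 0.0230). F13a1 was too low to test in neutrophil-like cells, and F7 was not called there, at 45.1 against 6.63 CPM (log2 2.34, adjusted p = 0.0918, edgeR).

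**Figure D5:**
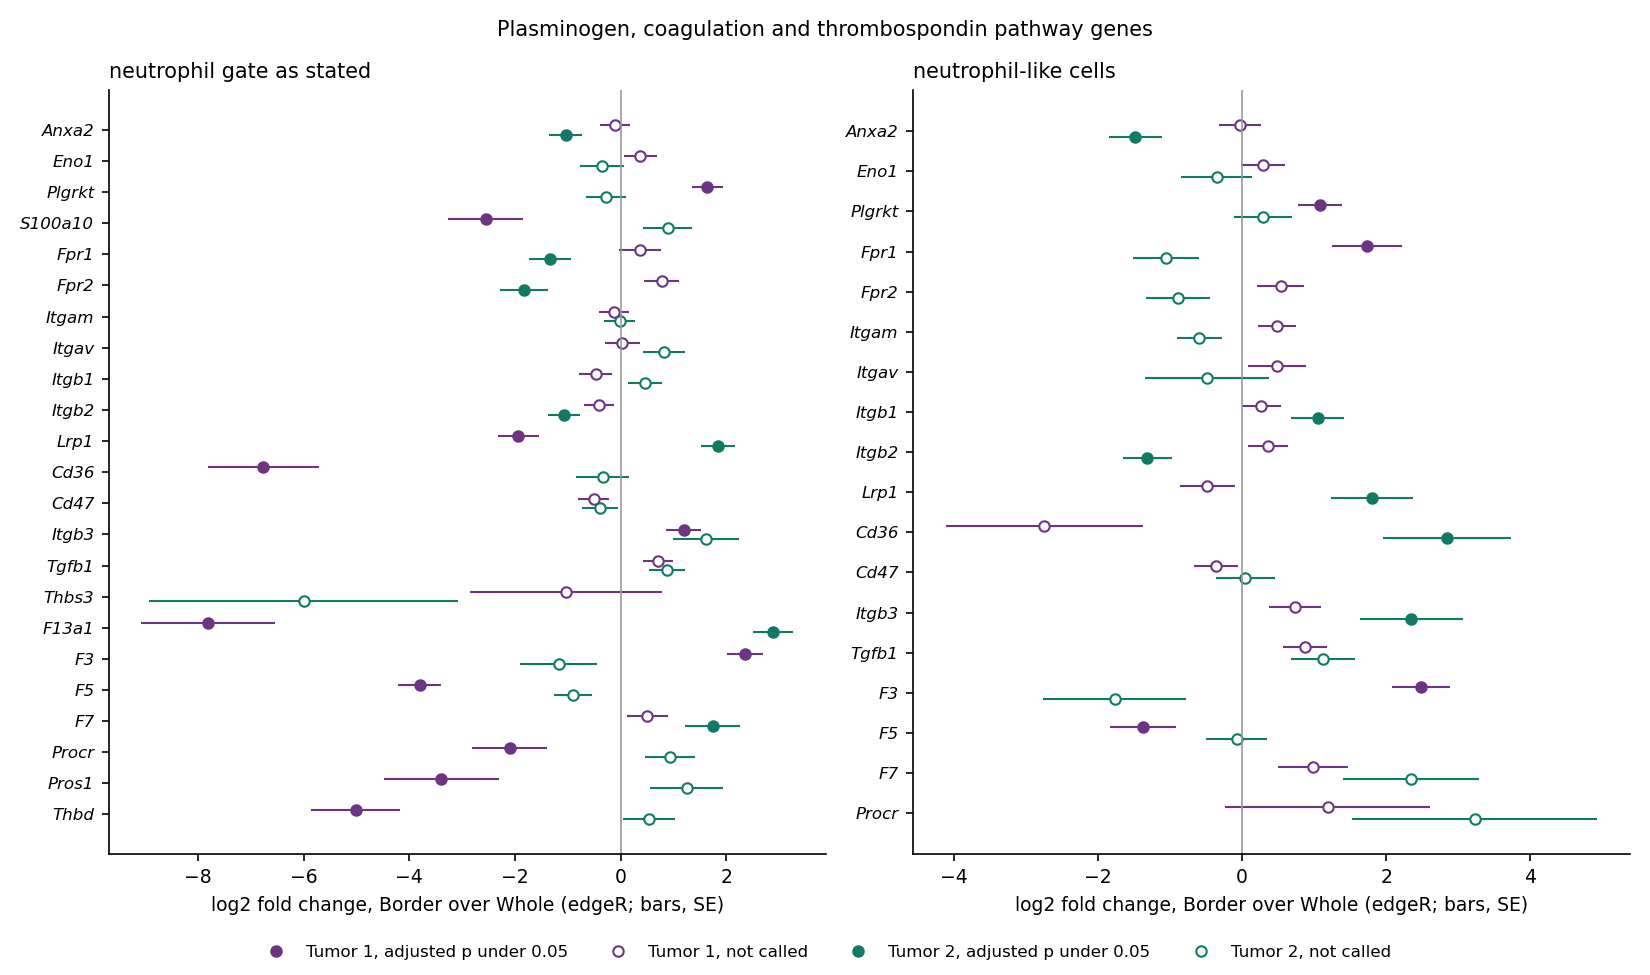
Log2 fold change of tested pathway genes, Border over Whole Tumor, by edgeR with SE bars, in the neutrophil gate as stated (left) and in neutrophil-like cells (right). SE is the absolute log2 change over the square root of the F statistic. Filled points have an adjusted p under 0.05. F3 is higher at the Tumor 1 Border in both panels (2.36 and 2.48), while Cd36, lower in Tumor 1 in the left panel, is not called in the right one. Points far from 0 with wide bars, such as F13a1 in Tumor 1 and Thbs3 in Tumor 2, are fitted against libraries at or near 0 UMIs.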

How the data were processed

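The authors deposited raw UMI counts per gene and cell, 1 table per library, made from Seq-Well reads. The submitters' processing notes name bcl2fastq 2.17.1.14, STAR 2.5.2b and the mm10 build. The members, gene lists and class rules were chosen with earlier results of these data known. Barcodes with fewer than 200 genes (449) were left out. Gate cells in which macrophage-list UMIs outnumbered gate UMIs were not called neutrophil-like, and cells outside that class with at least 5 macrophage-list UMIs were called macrophage-like. Scrublet (scanpy 1.11.5) marked 57 doublets (1.46%), 15 of them in the gate, which were kept. UMIs were summed per class and library, since cells are not replicates, and divided by the class total (CPM) with exact Poisson intervals (scipy 1.17.1). A class at 0 has a floor of 3 UMIs. Members carry no test, since their levels chose them. Sums of the gate were fitted in edgeR 4.0.16 (R 4.3.3; TMM, filterByExpr, 4 group means, 4 residual degrees of freedom, all from arrays) and, as an alternative, DESeq2 1.42.0. All 5 members passed the filter in the gate, and 4 of them, without Serpinb2, in neutrophil-like cells. A Border group is 1 library, so enough counts in 1 library let a gene pass. Counts were also simulated for 7688 genes, with 200 genes changed 4-fold up or down at random. The fit recovered 75.6% of changed genes for the Tumor 1 Border, 61.5% for the Tumor 2 Border and 83.9% between tumors. False calls were 5.67%, 7.69% and 6.66% of the calls, with 7077, 7099 and 7079 genes tested on average. All libraries shared 1 mean profile there, so the shift in composition between the real libraries was absent. These rates do not cover it and give no error rate for the calls above. Similar genes were ranked on log2(CPM + 10) over class-by-tumor sums of at least 10000 UMIs among 8263 genes with at least 100 UMIs. Named genes were the 5 members, up to 3 pathway genes per direction and tumor with the smallest adjusted p, and the 5 most similar genes per member; other pathway genes were named after their values were seen. Gene positions are those of GENCODE vM21 (GRCm38), and promoters those of RefSeq GRCm38.p6. A macrophage class, an engineered allele and a pathway gene are not reported here; the gene stays in the counts over all lists.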

Additional observations from a re-analysis of the deposited data

Results flagged for a closer look

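Plaur in the neutrophil gate lay on opposite sides of the arrays at the Border of the 2 tumors. The ratio of Border to array mean was 2.26 in Tumor 1 and 0.620 in Tumor 2, and the difference was not tested. Of all genes tested, 14.3% lay above all 3 arrays at the Tumor 1 Border, and 15.2% lay below them at the Tumor 2 Border. In neutrophil-like cells the second ratio was 0.965 and the Border lay within its arrays. Of the 11 pathway genes named for the smallest adjusted p in one tumor, a choice that favours a difference between tumors, 7 were called in edgeR's interaction term for the Border effect, given as log2 of Tumor 2 minus Tumor 1. Each effect rests on 1 Border library and the spread comes from the arrays alone, so these adjusted p-values compare libraries and do not show that the tumors differ. Of all 7688 genes tested 21.7% were called, and 13 of the 24 tested pathway genes. The difference was -3.53 for F3 (adjusted p = 0.00123), -1.91 for Plgrkt (adjusted p = 0.00453) and -2.61 for Fpr2 (adjusted p = 7.86e-04), all of which stood lower at the Tumor 2 Border relative to Tumor 1. By library size alone, that of Plgrkt was -0.84 and not called (adjusted p = 0.155). It was 2.90 for F5 (adjusted p = 1.45e-04), 6.43 for Cd36 (adjusted p = 3.13e-04), 3.78 for Lrp1 (adjusted p = 1.50e-06) and 10.7 for F13a1 (adjusted p = 4.62e-08). The last value and that of Cd36 are fitted against a Border library with 0 and 1 UMI and give no size. The macrophage list in the gate stood at 4.27 per 10000 UMIs in the Tumor 1 Border against 62.8 to 81.7 in its arrays, and at 250.5 in the Tumor 2 Border against 38.9 to 82.6. In neutrophil-like cells, without the macrophage-rich cells, the difference was 2.28 for Lrp1 and -4.25 for F3, both still called by edgeR. F5 at 1.30, Plgrkt at -0.78 and Fpr2 at -1.43 were not called, and F13a1 was too low to test. Cd36 was at 5.59, again against 1 UMI. It passed the count filter in these cells only through the Tumor 2 Border, so its call is not read, though it stays in the counts. There 12.5% of all 5636 genes tested and 6 of 19 pathway genes were called. Itgb3, F7, Itgb2 and Anxa2 were not called in the gate, and of these Itgb2 (-1.68, adjusted p = 0.00273) and Anxa2 (-1.46, adjusted p = 0.0221) were called in neutrophil-like cells.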

How the results depend on the processing

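The main limits are the single Border library and single mouse per tumor, macrophage-rich cells in the gate, and the scaling. Plau in the gate was 138.6, 135 and 197.8 CPM in the Tumor 1 arrays, and 75.8, 157.8 and 301 CPM in the Tumor 2 Border, with cells that pass another gate left out, in neutrophil-like cells, and without macrophage-list UMIs (the last 2 settings were chosen after seeing the data). Leaving out each array gave 77.6 to 104.0 CPM in Tumor 1 and 6.49 to 29.8 CPM in Tumor 2. The log2 change of Plau between tumors became -2.22 with a gate of 3 UMIs, -5.64 with cells of another gate left out, -5.70 in neutrophil-like cells and -1.53 by library size alone, and ran from -2.63 to -0.55 without single arrays (-2.63 without array 3 of Tumor 2). That of Thbs1 was 0.84 with at least 500 genes, for which the cause was not tested, and 1.03 to 1.18 without single arrays. That of F10 was 0.65 with cells of another gate left out and reversed to -0.50 by library size alone, and was 0.01 to 0.46 without single arrays. Plaur ran from 2.22 to 2.44 and Serpinb2 from -8.58 to -8.00 without single arrays, but every fitted value of Serpinb2 is set against arrays at 0 UMIs and gives neither a size nor a sign of stability.

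Pathway genes lower at the Tumor 1 Border numbered 0 with cells of another gate left out, 1 in neutrophil-like cells, 13 by library size and 5 by DESeq2, and 7 to 9 without single arrays. Those higher at the Tumor 2 Border numbered 1, with cells of another gate left out, 10 by library size and 2 to 8 without single arrays (8 without array 3 of Tumor 2). Those lower there numbered 1 with 500 genes, 2 with cells of another gate left out, 2 in neutrophil-like cells, 1 by library size, 1 without the filter and 4 without any single array; those higher in Tumor 1 ran from 3 to 4. Between tumors, 2 were higher and 12 lower by library size and 3 and 3 by DESeq2, against 6 and 5 (chosen after seeing the data). Over all genes, edgeR called 758 higher and 500 lower at the Tumor 1 Border, 319 and 573 at the Tumor 2 Border, and 1463 and 1134 between tumors; by library size alone the splits were 334 and 1834, 1142 and 305, and 774 and 3677, and by DESeq2 390 and 214, 133 and 378, and 924 and 493. The median shift over all genes was -0.69, 0.60 and -0.93 by library size against -0.11, 0.11 and -0.19, and for the difference of the Border effects between tumors 1.30 against 0.23. By library size that difference was -2.46 for F3, -0.84 for Plgrkt (adjusted p = 0.155, edgeR, not called), -1.53 for Fpr2 and 2.31 for F7 (adjusted p = 0.00617, called), and those of Itgb2 and Anxa2, not called, reversed to 0.39 and 0.13. Gate cells with a Plau UMI were 22.6% and 13.1% in the Border and arrays of Tumor 1 without thinning, and 10.7%, 4.93% and, in the Tumor 2 Border, 5.38% at 500 UMIs. Arrays with the same number did not vary together (correlations of 0.040, 0.035 and -0.019), and the replicate block gave log2 changes of -0.74 for Plau, 2.43 for Plaur, -8.81 for Serpinb2, 1.23 for Thbs1 and 0.20 for F10, with 1304 and 761 calls of 6623 genes.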
